A study of Caenorhabditis remanei with 48 samples.

Results

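A group of 30 genes of the nematode Caenorhabditis remanei carried more RNA in first-stage (L1) larvae incubated at 30 °C than in larvae incubated at 20 °C. They are 30 of the 24723 gene models counted. They were chosen by 2 thresholds on the larval difference, which is the mean log2(CPM + 1) of larvae at 30 °C minus that of larvae at 20 °C. CPM are counts scaled to a common library size, with TMM factors (trimmed mean of M values) applied. With parents at 20 °C the difference had to reach 1.5 in each of 3 populations, which 36 gene models did. With parents at 30 °C its average over the 3 populations had to reach 0.5, which 30 of the 36 did. The measured larval difference therefore chose the genes, and it is given below as a description with no test.

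The 3 populations were a heat-selected and a control-selected population, both evolved from the ancestor (strain PX443). Each selection regime is represented by a single population, so a regime and the particular population cannot be told apart. Parents lived at 30 or 20 °C and their embryos were kept at 30 or 20 °C for 20 h in buffer without food, after which the larvae passed a 20 micron filter. Each replicate pooled about 100000 individuals, and polyadenylated RNA was sequenced. Each population had 2 libraries at each larval temperature from parents at 30 °C and 6 from parents at 20 °C, which gives 12 groups and 48 libraries. The labels put heat-selected libraries in batches E and F, control-selected ones in C and D and ancestral ones in A and B. Heated parents occur in E, C and A alone.

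Cells meet damaging heat with the heat shock response, in which heat shock factor switches on genes for chaperones and other proteins that keep proteins folded. In C. elegans, a close relative, such genes are nearly silent at cultivation temperature and are induced strongly within hours, then wane as protein folding recovers. The deposited counts are listed by gene model identifier, with no gene names, so it is not known here which of the 30 are heat shock genes, and no function is given to any of them. The markers of larval tissues could not be looked up for the same reason. In pooled animals, fewer cells of a type and less RNA per cell cannot be told apart.

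Counts in genes ran from 1986767 to 12717722 per library, with a median of 4652859.5, and all 30 genes were among the 13460 that passed the filter on low counts. TMM factors ran from 0.7 to 1.53, and reads that did not align made up 9.77 to 37.5% of a library. In 4 libraries more than 35% of the reads fell outside genes. At 30 °C with unheated parents, replicates 1 and 2, 3 and 4, and 5 and 6 gave nearly the same sums over the 30 genes, so the libraries may not be 6 independent samples. One library at 20 °C, replicate 3 of heat-selected larvae from unheated parents, stood apart: its 30 genes summed to 12100 CPM, while the other 5 libraries of its group lay between 1520 and 3930 CPM. Without that library the rule found 31 genes, among them all 30.

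The first 8 genes by larval difference were CRE_PX356_1986, CRE18316, CRE_PX356_430, CRE01029, CRE18322, CRE18318, CRE27162 and CRE27471. Their differences with parents at 20 °C, averaged over populations, lay between 5.73 and 6.98 on the log2 scale. Summed, these 8 genes reached 5030 to 91300 CPM in heat-selected larvae at 30 °C from unheated parents, against 214 to 6960 CPM at 20 °C. In control-selected larvae the sum was 1040 to 37200 CPM at 30 °C and 32.3 to 280 CPM at 20 °C. In the ancestor it was 12300 to 47800 CPM at 30 °C and 88 to 567 CPM at 20 °C. The lowest library at 30 °C thus exceeded the highest at 20 °C in the control-selected and ancestral populations, and in the heat-selected population the ranges overlapped through replicate 3 at 20 °C.

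**Figure D1:**
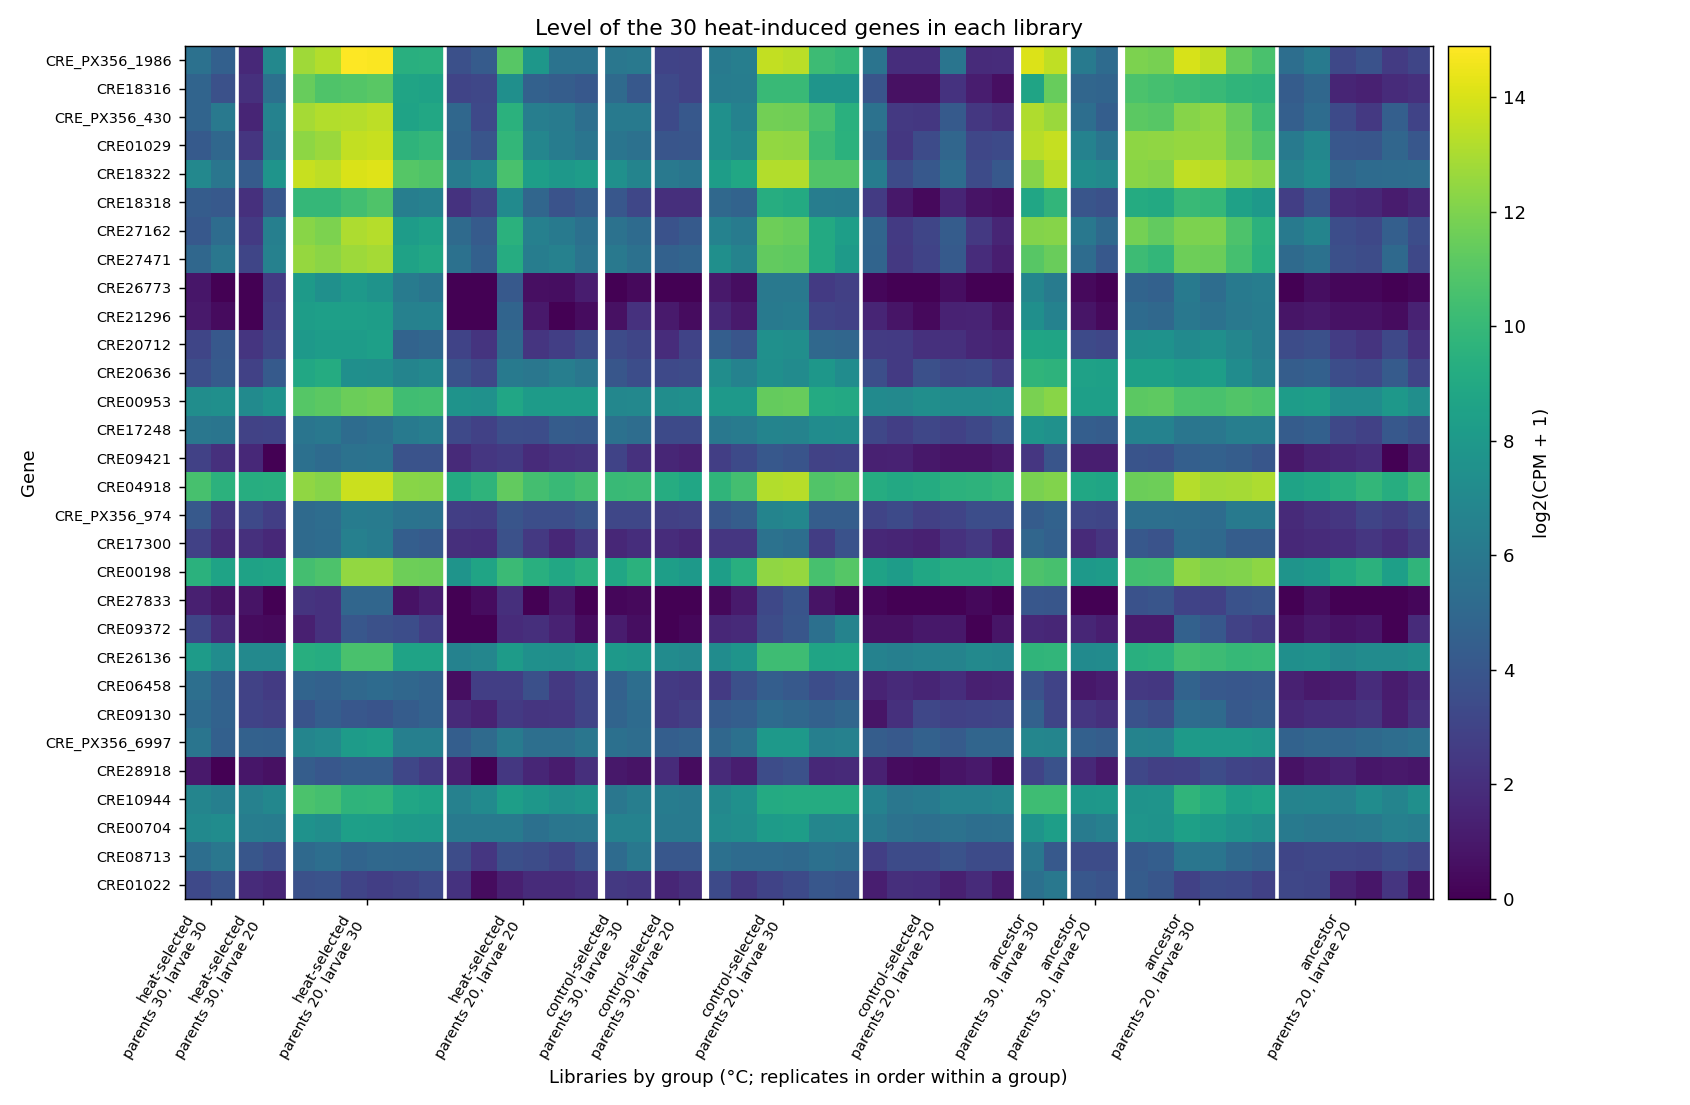
Level of each of the 30 genes (rows, in order of larval difference) in each of the 48 libraries (columns, grouped by population, parental and larval temperature), as log2(CPM + 1) in colour. With unheated parents the first 8 rows are bright at 30 °C in the heat-selected and ancestral populations and in batch D of the control-selected one. In control-selected batch C, replicates 1 and 2, they summed to 1100 and 1040 CPM. With heated parents they are bright in the ancestor alone, where they summed to 49000 and 51300 CPM. Control-selected larvae of heated parents were all in batch C, where these genes summed to 521 and 391 CPM at 30 °C.

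CRE_PX356_1986 had the largest difference of the 30. In heat-selected larvae from unheated parents it stood at 7010, 9370, 30400, 28700, 670 and 697 CPM in replicates 1 to 6 at 30 °C, against 11.6, 18.4, 2120, 236, 49.7 and 51 CPM at 20 °C. In control-selected larvae it stood at 65.8, 80.1, 11600, 10600, 1170 and 965 CPM at 30 °C and at 52.2, 2.87, 2.8, 54.9, 2.5 and 2.75 CPM at 20 °C. In the ancestor it stood at 4020, 3660, 16100, 12000, 2600 and 1570 CPM at 30 °C and at 39.9, 68.6, 8.32, 12.4, 5.02 and 7.7 CPM at 20 °C. Replicates 3 and 4 were the highest at 30 °C in all 3 populations, replicate 3 at 20 °C was the one heat-selected library that overlapped with 30 °C, and the other populations did not overlap. The differences were 6.05 in the heat-selected, 6.71 in the control-selected and 8.19 in the ancestral population.

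CRE18322 was likewise highest in replicates 3 and 4 of each population at 30 °C. In heat-selected larvae from unheated parents its lowest, median and highest values were 1790, 11800 and 18100 CPM at 30 °C and 72.1, 268 and 1560 CPM at 20 °C. In control-selected larvae they were 309, 1850 and 9200 CPM at 30 °C, against a lowest value of 9.56 and a highest of 73.9 CPM at 20 °C. In the ancestor they were 4410, 5720 and 11500 CPM at 30 °C and 28.7, 37.8 and 150 CPM at 20 °C. The groups did not overlap in any of the 3 populations, and the highest value at 20 °C was again replicate 3 of the heat-selected population.

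Next came CRE26773 and CRE21296, which were nearly silent at 20 °C. CRE26773 lay between 53.9 and 278 CPM in heat-selected larvae at 30 °C from unheated parents, and between 0 and 1.26 CPM at 20 °C outside replicate 3, which held 16.9 CPM. In control-selected larvae it lay between 0.453 and 64.5 CPM at 30 °C and between 0 and 0.48 CPM at 20 °C, and in the ancestor between 23.7 and 79.7 CPM at 30 °C and between 0 and 0.467 CPM at 20 °C. Control-selected larvae overlapped, since replicate 2 at 30 °C lay just below the highest value at 20 °C, and the others did not. CRE21296 followed the same order, with 91.2 to 341 CPM at 30 °C in the heat-selected population, 1.13 to 76.3 CPM in the control-selected and 31.8 to 73.8 CPM in the ancestral one. Control-selected larvae at 20 °C held 0.311 to 1.97 CPM of it, which overlapped with their range at 30 °C.

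The other 20 genes had differences of 1.65 to 3.9 on average over populations with unheated parents. CRE04918 was well counted at 20 °C too. It stood at 4640 to 13400 CPM in heat-selected larvae at 30 °C and at 549 to 2550 CPM at 20 °C. In control-selected larvae it stood at 843 to 10000 CPM at 30 °C and 504 to 912 CPM at 20 °C, and in the ancestor at 3020 to 9750 CPM at 30 °C and 403 to 1100 CPM at 20 °C. Control-selected larvae overlapped, in replicate 1 at 30 °C, and the others did not. CRE08713 had the most even response of the 30, with differences of 1.73 in the heat-selected, 1.93 in the control-selected and 1.8 in the ancestral population, followed by CRE06458 with 2.33, 2.12 and 2.27. CRE21296 had the least even one, with differences of 6.7, 2.42 and 4.81 in the same order of populations.

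Near the first threshold, the lowest of the 3 differences with unheated parents was 1.51 for CRE27833, 1.53 for CRE01022 and 1.55 for CRE28918, just inside it. It was 1.47 for CRE25689 and 1.43 for both CRE_PX356_1949 and CRE04919, just outside. Near the second threshold, the average difference with heated parents was 0.5 for CRE28918, 0.63 for CRE_PX356_974 and 0.64 for CRE20636. CRE02851 missed it at 0.45, and the other 5 genes left out lay between −0.15 for CRE01964 and −1.47 for CRE24499.

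With unheated parents the level of the 30 genes at 30 °C differed widely between pairs of replicates. In the heat-selected population the 30 genes summed to 60000 and 60200 CPM in replicates 1 and 2, to 114000 and 118000 in replicates 3 and 4, and to 16000 in each of replicates 5 and 6. In the control-selected population the sums were 3330 and 4230, then 57800 and 57200, then 12900 and 11500 CPM. In the ancestor they were 31900 and 30100, then 68200 and 58500, then 35700 and 30100 CPM. Replicates 3 and 4 were the highest pair for 22 of the 30 genes in the heat-selected, 24 in the control-selected and 19 in the ancestral population. The lowest pair was 5 and 6 for 21 genes in the heat-selected and 1 and 2 for 26 in the control-selected population, and in the ancestor 1 and 2 for 15 and 5 and 6 for 11. The median gene differed between its highest and lowest pair by 3.7-fold, 10.1-fold and 2.44-fold in the same order of populations.

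Technical measures also differed between pairs, but did not follow the sums throughout. TMM factors at 30 °C were 0.77 to 0.78 in replicates 3 and 4 of the heat-selected population, 0.75 to 0.8 in the control-selected and 0.7 to 0.9 in the ancestral one, whereas replicates 1 and 2 had 1.03 to 1.05, 1.2 to 1.53 and 1.28 to 1.29. Replicates 5 and 6 had 0.8 to 0.83, 0.85 to 0.95 and 0.78 to 0.88. Reads not aligned made up 25.7 to 28.9%, 27.2 to 36.9% and 30.9 to 37.5% in replicates 3 and 4, 17.3 to 17.4%, 15 to 17.5% and 11.3 to 12.4% in replicates 1 and 2, and 27.2 to 32.6%, 23.5 to 25.1% and 21.1 to 21.9% in replicates 5 and 6. In the heat-selected population replicates 5 and 6 thus resembled replicates 3 and 4 in both measures, and held the lowest sums where those held the highest. In the control-selected and ancestral populations replicates 3 and 4 held the highest sums and the largest share of reads not aligned. The part of these measures in the levels of the 30 genes was not tested. Not all genes followed the pairs: CRE17248 was highest in replicates 5 and 6 of the heat-selected population, at 70 and 81.8 CPM, where the sum of the 30 genes was lowest.

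The name under which these genes are collected, a response whatever the parental temperature, fits the ancestor and only some of the genes in the evolved populations. With heated parents the median difference of the 30 genes was 0.65 in the heat-selected, 0.94 in the control-selected and 2.94 in the ancestral population. With unheated parents it was 2.55, 2.28 and 3.11. Of the 30, 17 reached a difference of 0.5 with heated parents in the heat-selected population, 21 in the control-selected and 29 in the ancestral one, while 12.8%, 13.6% and 15.9% of all genes tested did. A difference of 1.5 was reached by 7, 9 and 27 of the 30, and by 0.513%, 0.409% and 1.42% of all genes tested. A difference below 0 was found for 4 genes in the heat-selected, 3 in the control-selected and none in the ancestral population. In all 3 populations 14 genes reached 0.5, in 2 populations 9 genes and in 1 population 7 genes, which was the ancestor for each of the 7. The average over populations that chose the genes was thus carried by the ancestor for these.

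**Figure D2:**
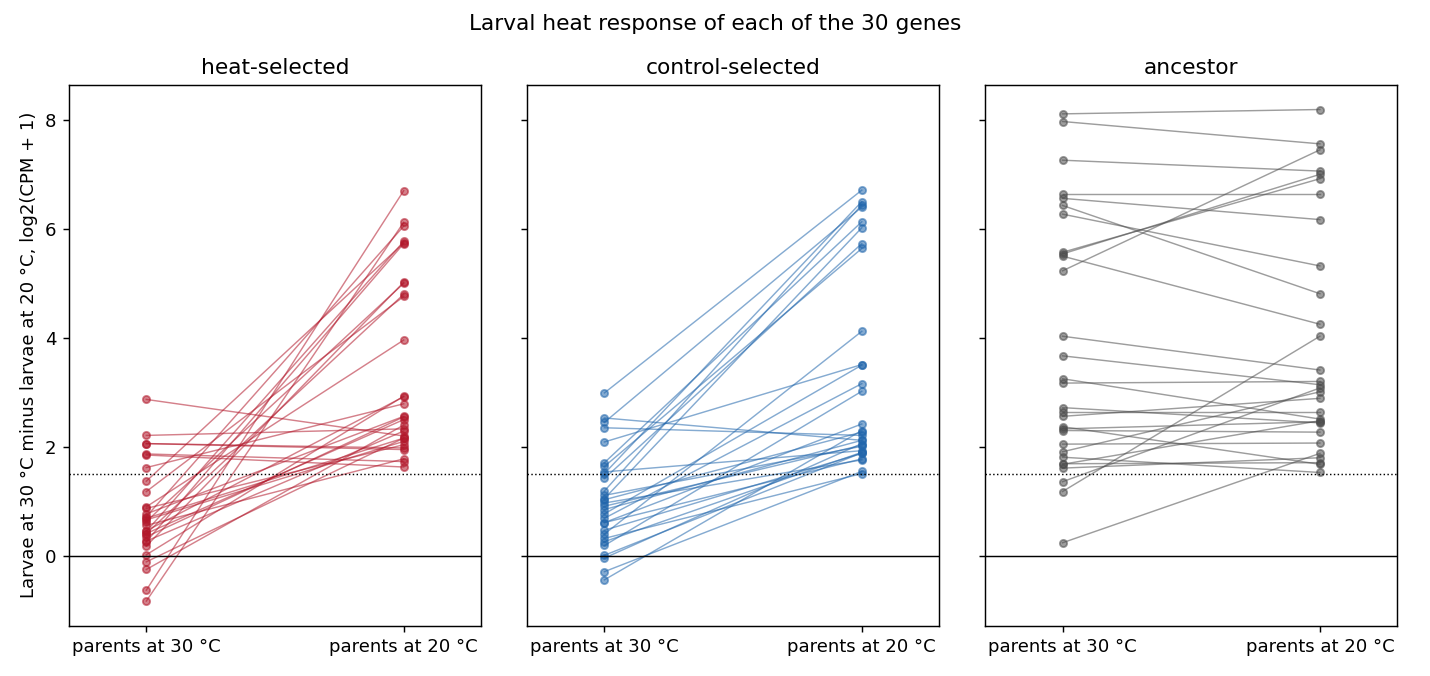
Larval difference (larvae at 30 °C minus larvae at 20 °C, in log2(CPM + 1)) of each of the 30 genes, joined by a line between parents at 30 °C and parents at 20 °C, in 1 panel per population; the dotted line marks the threshold of 1.5. In the heat-selected panel 7 of 30 genes lie above it with heated parents, in the control-selected panel 9 and in the ancestral panel 27.

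The overlap of single libraries was counted as well. With heated parents both libraries at 30 °C exceeded both at 20 °C for 12 of the 30 genes in the heat-selected, 24 in the control-selected and 30 in the ancestral population, beside 17.4%, 24.1% and 25.1% of all genes tested. With unheated parents all 6 libraries at 30 °C exceeded all 6 at 20 °C for 21, 23 and 28 genes, beside 3.05%, 3.32% and 3.46% of all genes tested. These counts follow from the rule in part, since it used the same libraries.

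The first 8 genes had differences of 0.18 to 1.37 in heat-selected larvae of heated parents. CRE18322 held 121 and 57.6 CPM at 30 °C and 18.3 and 208 CPM at 20 °C there. It held 176 and 105 CPM at 30 °C and 63.1 and 55.3 CPM at 20 °C in the control-selected population, and 4700 and 9860 CPM at 30 °C and 158 and 129 CPM at 20 °C in the ancestor. The 2 groups overlapped in the heat-selected population and lay far apart in the ancestor. CRE_PX356_1986 held 46.3 and 22.3 CPM at 30 °C and 2.27 and 123 CPM at 20 °C in heat-selected larvae of heated parents. It held 59.1 and 64 CPM at 30 °C and 7.01 and 6.7 CPM at 20 °C in control-selected larvae, and 17900 and 11200 CPM at 30 °C and 70.1 and 35.9 CPM at 20 °C in the ancestor. The heat-selected library at 20 °C with 123 CPM, replicate 2, was one of the 4 with more than 35% of its reads outside genes (47.1%), and the part of this in its values was not tested.

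Summed over the 30 genes, heat-selected larvae of heated parents held 2270 and 3490 CPM at 30 °C and 1560 and 2420 CPM at 20 °C. Control-selected larvae of heated parents held 2820 and 3060 CPM at 30 °C and 1390 and 1590 CPM at 20 °C. Ancestral larvae of heated parents held 62800 and 66100 CPM at 30 °C and 2300 and 2470 CPM at 20 °C. At 20 °C the 3 populations were alike in scale, and at 30 °C the ancestor alone reached the sums seen with unheated parents. The control-selected gap was small within batch C, which held all its libraries of heated parents. There, larvae at 30 °C from unheated parents held 3330 and 4230 CPM. In batch E, heat-selected larvae at 30 °C from unheated parents held 60000 and 60200 CPM.

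A difference of at least 1.5 in each population with heated as well as unheated parents was found for 4 genes. CRE17248 held 59 and 54.1 CPM at 30 °C in heat-selected larvae of heated parents and 6.62 and 7.09 CPM at 20 °C. It held 45.4 and 38.4 CPM at 30 °C and 9.04 and 9.07 CPM at 20 °C in control-selected larvae, and 218 and 182 CPM at 30 °C and 20.6 and 19.4 CPM at 20 °C in the ancestor. Both libraries at 30 °C exceeded both at 20 °C in each population, and the differences were 2.87, 2.09 and 3.25 in the heat-selected, control-selected and ancestral population. The same held for CRE06458, with differences of 2.21, 2.53 and 2.3, for CRE09130, with 2.06, 2.35 and 1.68, and for CRE08713, with 1.87, 1.54 and 1.61. The differences of these 4 genes thus ran from 1.54 to 3.25 with heated parents and from 1.73 to 3.51 with unheated ones. In ancestral larvae of heated parents, CRE09130 held 24.1 and 7.58 CPM at 30 °C, against 4.02 and 3.15 CPM at 20 °C. CRE08713 held 61.4 and 17 CPM there, against 10 and 10 CPM. The higher value at 30 °C was each time replicate 1, which had 41.1% of its reads outside genes. The ancestral differences of these genes thus leaned on that library, and its part was not tested.

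**Figure D3:**
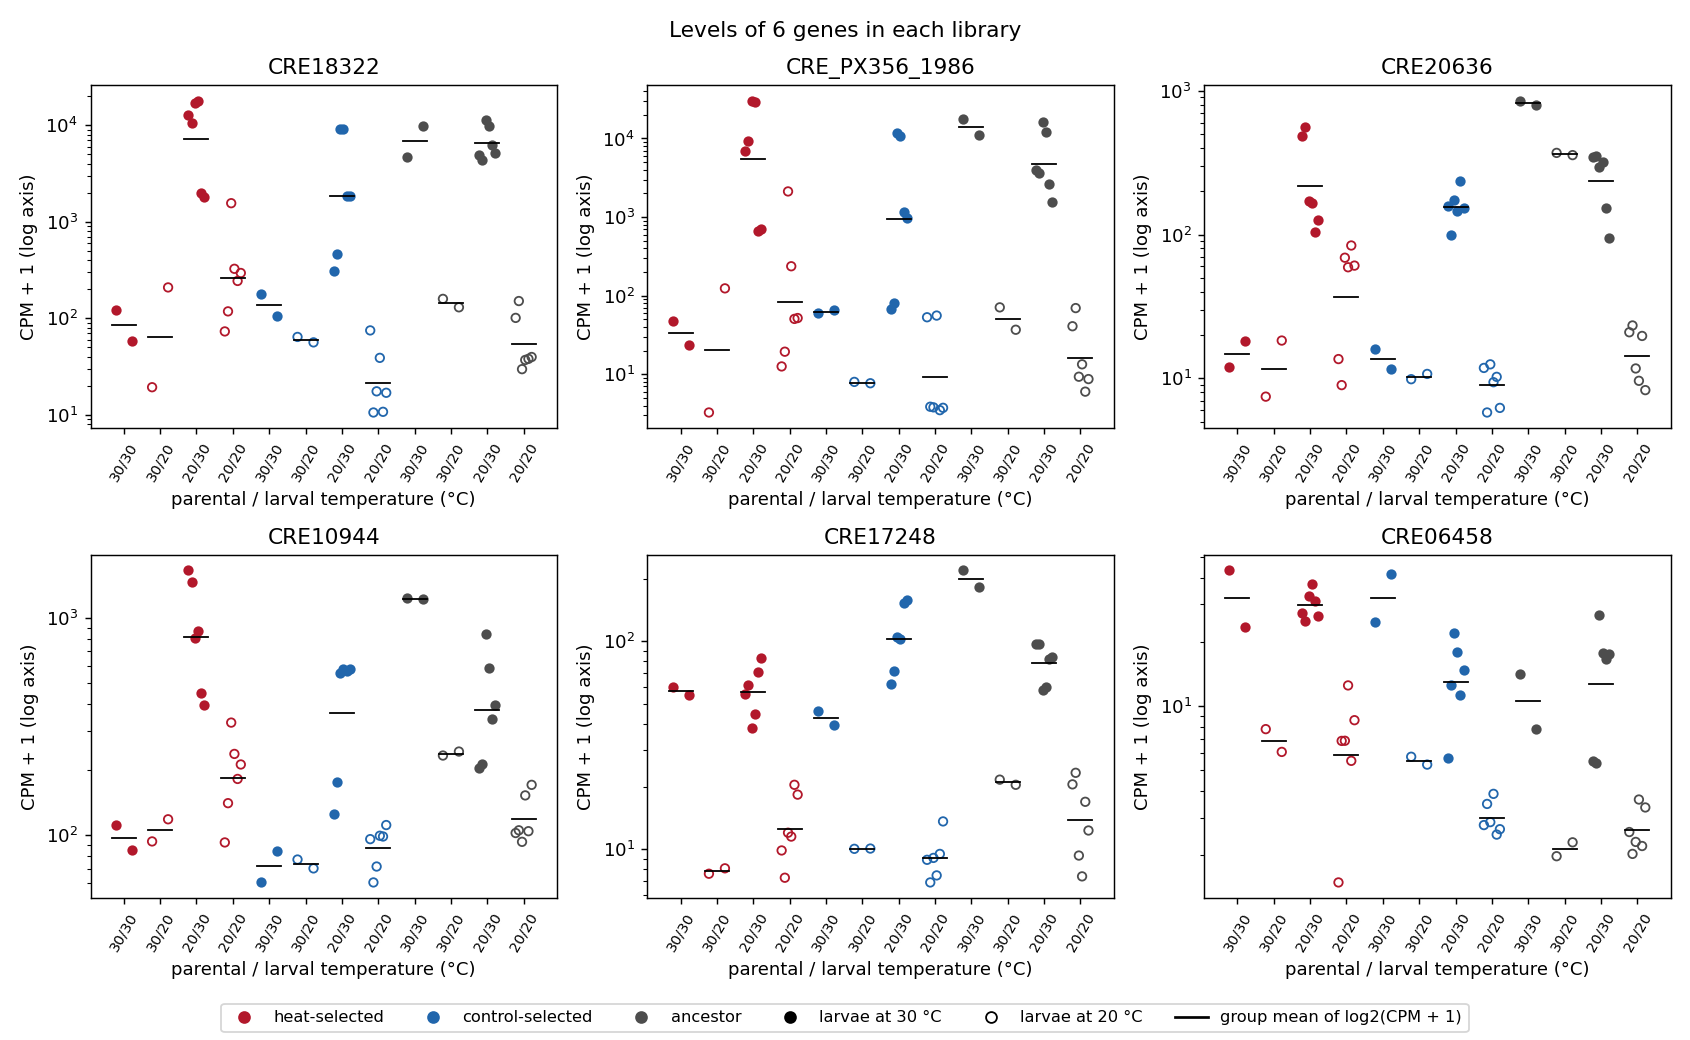
CPM + 1 (log axis) of 6 of the 30 genes in each library, in columns by population and by parental and larval temperature; filled points are larvae at 30 °C, open points larvae at 20 °C, and bars are group means of log2(CPM + 1). CRE18322 and CRE_PX356_1986 lie at the level of the open points in the heated parents' columns of the heat-selected population, CRE17248 and CRE06458 do not, and CRE20636 averages 362 CPM at 20 °C in the ancestor's.

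Because libraries of heated parents came from single batches, the larval difference was also taken within each batch. In batch E, the heat-selected median over the 30 genes was 0.65 with heated parents and 3.36 with unheated ones, and in batch F, with unheated parents alone, it was 2.47. In batch C, the control-selected median was 0.94 with heated and 1.45 with unheated parents, and in batch D it was 2.83. In the ancestor it was 2.94 with heated and 3.37 with unheated parents in batch A, and 3.35 in batch B. The control-selected median in batch C was thus low with both kinds of parents, but single genes differed. CRE18316 had a difference of 1.51 with heated and 3.98 with unheated parents in that batch, CRE20636 one of 0.4 and 3.92, and CRE18322 one of 1.19 and 3.75, whereas CRE_PX356_1986 had 2.99 and 2.36. With unheated parents a difference of 1.5 was reached by 29 of the 30 genes in batch E, 14 in batch C and 26 in batch A, beside 2.1%, 0.624% and 2.1% of all genes tested.

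**Figure D4:**
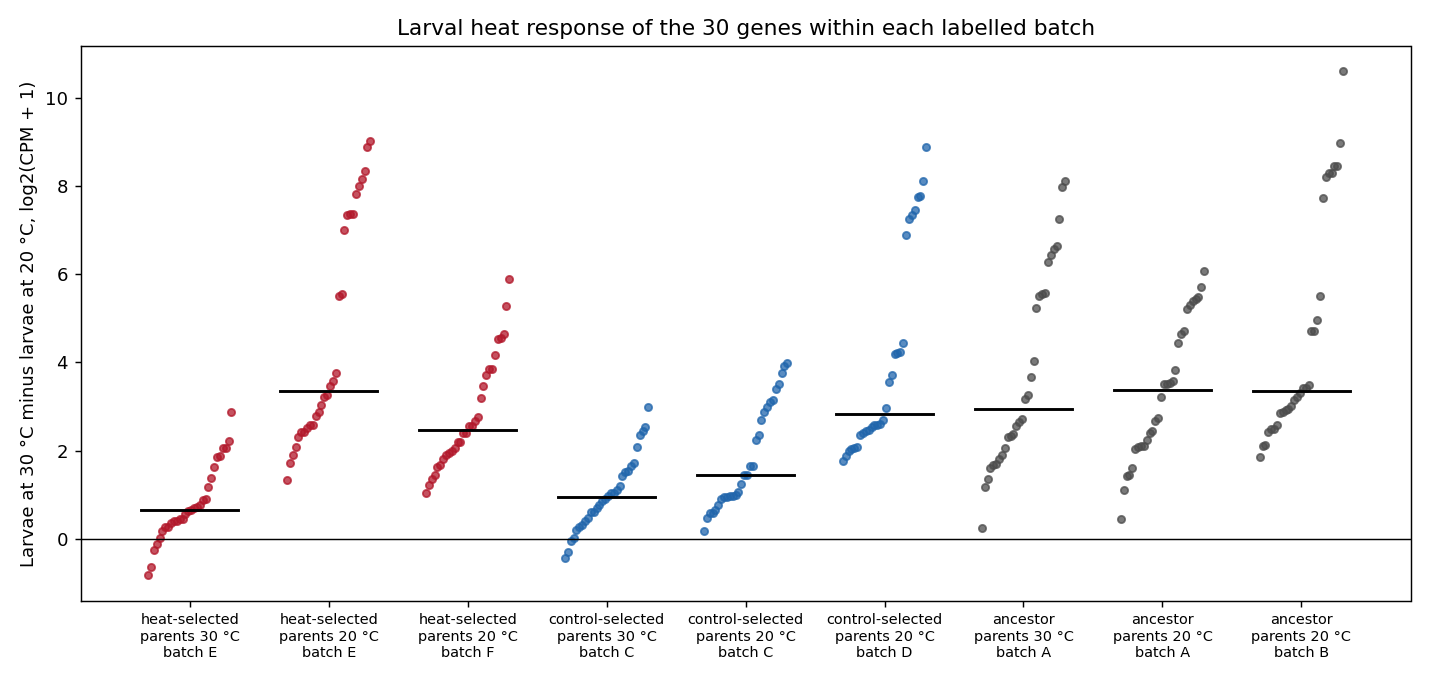
Larval difference in log2(CPM + 1) of the 30 genes (points, sorted) within each labelled batch, by population and parental temperature, with the median as a bar. The medians of the heat-selected population in batch E stand at 0.65 with heated and 3.36 with unheated parents, those of the control-selected population in batch C at 0.94 and 1.45, and those of the ancestor in batch A at 2.94 and 3.37.

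Within a batch, parents at 30 °C minus parents at 20 °C gave the following medians over the 30 genes for larvae at 30 °C: −3.27 in the heat-selected, −0.63 in the control-selected and 0.51 in the ancestral population. For larvae at 20 °C they were 0.13, 0.22 and 0.08. Heat-selected larvae at 30 °C thus stood apart through the level at 30 °C, not the one at 20 °C. CRE17248 and CRE06458 differed by −0.03 and 0.29 in heat-selected larvae at 30 °C, while CRE_PX356_1986 differed by −7.93 and CRE18322 by −7.12. In the ancestor at 30 °C, CRE_PX356_1986 and CRE18322 were on average higher with heated parents within batch A, by 2.35 and 0.41. Over both batches the values overlapped. CRE_PX356_1986 held 17900 and 11200 CPM with heated parents, and 16100 and 12000 CPM in batch B. CRE18322 held 4700 and 9860 CPM with heated parents, and 11500 and 9840 CPM in batch B. Averaged over both larval temperatures, neither passed in the ancestor (adjusted p = 0.66 and 0.81 by edgeR).

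Whether parental temperature changed the average of both larval temperatures was tested with batch as a term, across all 13460 genes. The test was edgeR's quasi-likelihood one, with p-values adjusted after Benjamini and Hochberg and a threshold of 0.05. The rule set a higher minimum with unheated parents (1.5 in each population) than with heated ones (0.5 on average), so it favoured genes with high values in heated larvae of unheated parents. These same libraries enter the test, so a lower average with heated parents is favoured by the choice of genes. In the heat-selected population 15 of the 30 genes were lower with heated parents and none higher. Over all genes tested 5.54% were called and 2.77% were lower, and since the rule used these libraries nothing is read from the larger share among the 30. The median fitted difference was −2.1 on the log2 scale, against 0.01 over all genes tested, and 26 of the 30 were negative. The largest called falls were those of CRE21296 (log2 fold change −4.42 ± 1.1, SE, adjusted p = 0.011) and CRE26773 (−4.41 ± 1.06, adjusted p = 0.0083), whose fitted sizes depended strongly on single libraries at 20 °C. They were −2.73 and −3.32 without replicate 3 of unheated parents, and −7.73 and −7.6 without replicate 2 of heated parents. With consecutive replicates summed in pairs none of the 30 passed by the same test, 16 had an unadjusted p under 0.05, and only 7 of the 15200 genes then tested passed at all. Leaving out 1 library lowered the count to 5 without replicate 1 of heat-selected larvae at 20 °C from heated parents, and to 8 or 9 without replicate 1 or 2 of the heat-selected larvae at 30 °C from either kind of parents.

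In the control-selected population none of the 30 genes passed by edgeR, DESeq2 or limma-voom, 4 had an unadjusted p under 0.05, and 0.156% of all genes tested were called. The median fitted difference was −0.27. CRE06458 had the most positive one, 1.58 ± 0.44 (SE), with an adjusted p of 0.2 by edgeR.

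In the ancestor 3 of the 30 genes were higher with heated parents and none lower, where 3.86% of all genes tested were called and 2.97% were higher. CRE20636 held 855 and 790 CPM in larvae at 30 °C from heated parents, against 347, 353, 292, 321, 153 and 94 CPM from unheated parents. At 20 °C it averaged 362 ± 9.26 CPM (SD, n = 2) with heated parents, against 19.9, 22.3, 10.7, 8.6, 18.7 and 7.27 CPM with unheated ones. Of the 30 genes it had the largest parental difference in ancestral larvae at 20 °C, 4.04 within batch A, where the median of the 30 was 0.08. Its fitted log2 fold change was 3.06 ± 0.44 (SE, adjusted p = 1.6e-05 by edgeR), and it was higher in both libraries at each larval temperature than in every library of unheated parents.

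CRE10944 held 1230 and 1220 CPM in ancestral larvae at 30 °C from heated parents, against a lowest, median and highest value of 202, 368 and 842 CPM from unheated ones. At 20 °C it held 231 and 241 CPM with heated parents, against 91.9, 103 and 169 CPM. The groups did not overlap, and the log2 fold change was 1.73 ± 0.32 (SE, adjusted p = 0.00052 by edgeR). CRE01022 held 44.6 and 61.6 CPM at 30 °C and 15.4 and 13.1 CPM at 20 °C with heated parents, against 6.27, 9.19 and 18.8 CPM at 30 °C and 0.641, 2.68 and 8.1 CPM at 20 °C with unheated ones. Its groups did not overlap either, and its log2 fold change was 1.58 ± 0.31 (SE, adjusted p = 0.0012 by edgeR). With replicates summed in pairs the adjusted p-values of the 3 genes by edgeR were 0.12, 0.34 and 0.2.

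CRE20636 stood otherwise in the evolved populations. It held 11 and 17.3 CPM in heat-selected larvae at 30 °C from heated parents, against a lowest, median and highest value of 104, 168 and 562 CPM from unheated ones. In control-selected larvae at 30 °C it held 14.9 and 10.6 CPM with heated parents, against 97.8, 155 and 233 CPM with unheated ones. Heated parents thus went with lower values of CRE20636 at 30 °C in both evolved populations and with higher values in the ancestor, with no overlap in any of the 3.

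The parental difference itself was compared between populations. Heat-selected minus ancestor, 13 of the 30 genes were lower and none higher by edgeR, where 8.34% of all genes tested were called and 4.39% were lower. The rule used these libraries, so nothing is read from the larger share among the 30. With heated parents 7 genes reached 0.5 in the ancestor alone, CRE20636 and CRE10944 among them. For those 7, a lower parental difference in an evolved population than in the ancestor was favoured by the choice of genes. The same holds for others that passed mainly through the ancestor. With heated parents CRE21296 had differences of −0.63 in the heat-selected, 0.61 in the control-selected and 6.43 in the ancestral population. The median over the 30 was −2.39, against 0.05 over all genes tested. CRE20636 had the largest, −6.47 ± 0.73 (SE, adjusted p = 5e-08 by edgeR). CRE_PX356_430 was next in size among those called, at −4.95 ± 1.47 (adjusted p = 0.028 by edgeR). CRE10944, at −4.04 ± 0.5, was smaller than several others called but had the next lowest adjusted p, 3.3e-07 by edgeR. With replicates summed in pairs CRE20636 and CRE10944 were the 2 that passed, at −6.52 ± 1.06 and −3.99 ± 0.77 (adjusted p = 0.017 and 0.035 by edgeR), of 48 genes that passed in all.

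Leaving out 1 library lowered the 13 to between 5 and 8 for 7 of the libraries. It was 5 without replicate 2 of heat-selected larvae at 30 °C from unheated parents or replicate 1 of heat-selected larvae at 20 °C from heated parents. It was 6 without replicate 1 and 8 without replicate 2 of heat-selected larvae at 30 °C from heated parents, and 7 without replicate 1 of heat-selected larvae at 30 °C from unheated parents. In the ancestor it was 7 without replicate 1 at 20 °C and 8 without replicate 2 at 30 °C, both of heated parents.

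Control-selected minus ancestor, 2 of the 30 were lower, where 1.13% of all genes tested were called and 0.854% were lower: CRE20636 at −4.6 ± 0.7 (SE, adjusted p = 9.3e-05 by edgeR) and CRE10944 at −2.41 ± 0.49 (adjusted p = 0.0042 by edgeR). With pairs summed neither passed, at adjusted p-values of 0.41 and 0.91 by edgeR. Heat-selected minus control-selected, none of the 30 passed by edgeR, DESeq2 or limma-voom, 6 had an unadjusted p under 0.05, and 0.0297% of all genes tested were called. The parental difference of the heat-selected population was therefore not shown to exceed that of the control-selected one, although the medians were −2.1 and −0.27.

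With unheated parents, the level averaged over both larval temperatures was compared between populations. Batches lie within populations, so batch and population cannot be told apart. Heat-selected larvae had higher levels than ancestral larvae of 11 of the 30 genes and lower levels of none, where 6.58% of all genes tested were called and 2.31% were higher. The rule chose the genes with these same libraries, so nothing is read from the larger share among the 30. The median over the 30 was 0.95, against −0.04 over all genes tested. CRE26773 was higher by 2.79 ± 0.73 (SE, adjusted p = 0.016 by edgeR) and CRE_PX356_1986 by 2.57 ± 0.81 (adjusted p = 0.047 by edgeR). Without replicate 3 of heat-selected larvae at 20 °C these were 1.36 and 1.34, and 3 genes passed in place of 11. Without replicate 1 or 2 of ancestral larvae at 30 °C, 6 passed. By limma-voom 3 of the 30 passed, and 6 with scaling to total counts.

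Heat-selected larvae exceeded control-selected larvae in 16 of the 30 genes and were lower in none, where 1.75% of all genes tested were called and 1.29% were higher. Here too the rule used these libraries, and nothing is read from the larger share. The median was 1.4, against −0.01. CRE26773 was higher by 3.69 ± 0.82 (SE, adjusted p = 0.0077 by edgeR) and CRE18318 by 3.14 ± 0.59 (adjusted p = 0.0011 by edgeR). CRE18318 held 970, 962, 1320, 1760, 82.1 and 90.8 CPM in heat-selected larvae at 30 °C, against 32.1, 26, 618, 560, 77.9 and 74.6 CPM in control-selected ones. It held 3.45 to 136 CPM in heat-selected larvae at 20 °C, against 0.311 to 4.93 CPM in control-selected ones. The populations overlapped at 20 °C and, through replicates 5 and 6 of the heat-selected population, at 30 °C. Without replicate 3 of heat-selected larvae at 20 °C, the genes that passed numbered 7 and CRE26773 was higher by 2.26.

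Between control-selected and ancestral larvae none of the 30 passed by edgeR, DESeq2 or limma-voom, 12 had an unadjusted p under 0.05, and 2.83% of all genes tested were called. The median was −0.54 and 25 of the 30 were negative. Without replicate 4 of control-selected larvae at 30 °C, 2 were lower by edgeR. With shared replicate numbers as a term (a block) in that test, several were lower. Their count is given with the dependence on processing. With replicates summed in pairs none of the 30 passed in any of the 3 comparisons of populations, with 12, 17 and 0 unadjusted p-values under 0.05 for heat-selected against ancestor, heat-selected against control-selected and control-selected against ancestor.

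**Figure D5:**
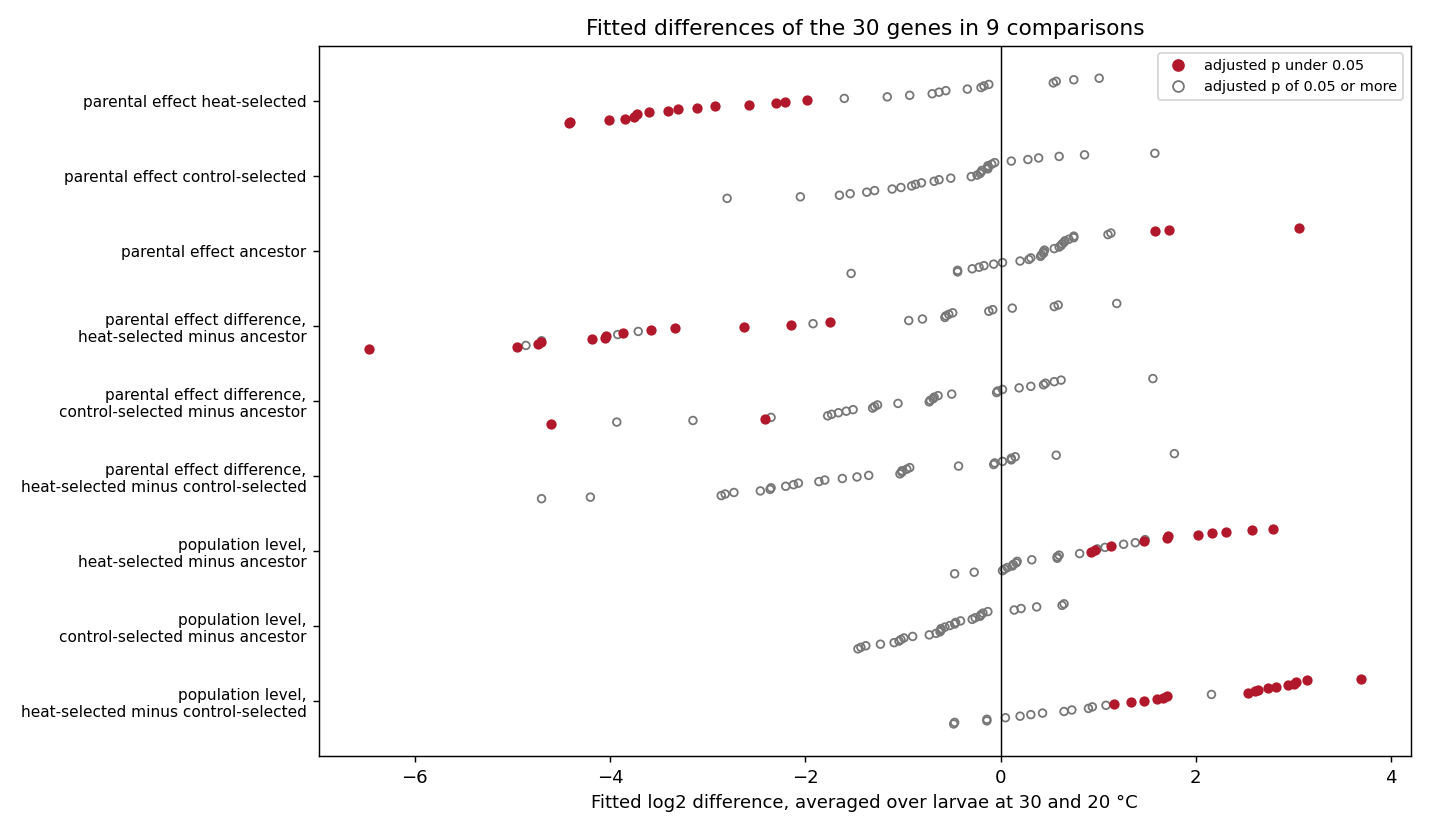
Fitted log2 differences of the 30 genes (points) in the 9 comparisons, averaged over larvae at 30 and 20 °C, with filled points for an adjusted p under 0.05 by edgeR; the population levels use unheated parents alone. Filled points lie left of 0 for 15 genes in the heat-selected parental effect and right of 0 for 3 in the ancestor's, and the 2 comparisons of the heat-selected population hold 11 and 16 filled points right of 0.

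Several of the 30 genes lie together in the assembly of the gene models. On scaffold_209, CRE18316, CRE18322 and CRE18318 are 3 of 31 models. CRE_PX356_1986 and CRE_PX356_430 are 2 of 60 on scaffold_127, and CRE27162 and CRE27471 are 2 of 125 on scaffold_57. These 7 are among the first 8 genes by larval difference. In the RefSeq annotation of another C. remanei strain, PX506, which matched 20 of the 30 identifiers, CRE18316 and CRE18322 follow each other with no gene between them, as do CRE27162 and CRE27471, and 1 gene separates CRE18316 from CRE18318. CRE01029, the remaining one of the 8, lies 14 genes from CRE01022 there, although the 2 are on different scaffolds in the files' assembly. Neighbouring copies with near-identical sequence would share reads, and counts could then be split or lost between them, so the separate values of such neighbours are uncertain.

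The neighbours CRE27162 and CRE27471 moved alike. In heat-selected larvae at 30 °C from unheated parents CRE27162 held 4790, 3950, 8660, 9460, 299 and 361 CPM, and CRE27471 held 5860, 5000, 6830, 7670, 382 and 480 CPM. With heated parents CRE27162 held 36.8 CPM or less and CRE27471 held 60.1 CPM or less at 30 °C in that population. Both were high in replicates 1 to 4 and low in replicates 5 and 6 and with heated parents.

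The 4 genes with a difference of at least 1.5 in each population and with either kind of parents lay elsewhere. CRE09130 and CRE08713 are the 2 gene models of scaffold_1379, CRE06458 is the 1 model of scaffold_2551, and CRE17248 is on linkage_group_1, which holds 3 of the 30 genes among 3868 models. At 30 °C from unheated parents, CRE09130 averaged 18 ± 4.34 CPM in the heat-selected, 26.3 ± 6.56 CPM in the control-selected and 21.8 ± 11.4 CPM in the ancestral population (SD, n = 6 each). CRE08713 averaged 32 ± 5.01, 38.7 ± 4.43 and 34.4 ± 16.7 CPM in the same order (SD, n = 6 each). Their SDs were below their means in each population. CRE_PX356_1986 averaged 12800 ± 13400, 4070 ± 5450 and 6660 ± 5940 CPM in the same groups (SD, n = 6 each), with an SD above the mean in both evolved populations.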

How the data were processed

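The authors deposited 1 table of read counts per library, made with GSNAP (a dated release) and HTSeq per the submitters' processing notes; the HTSeq version, the genome build and whether counting used strand are not given in the sources used here. Each table has rows for 24723 gene models, and 5 further rows for reads not counted in a gene, which were left out of library sizes.

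Counts were scaled by TMM, and the larval difference was the difference of group means of log2(CPM + 1). Tests used edgeR 4.0.16 in R 4.3.3 (quasi-likelihood, Benjamini-Hochberg over the 13460 genes with a minimum count of 10 by filterByExpr), on all 48 libraries in 12 groups. Batch as labelled was a term in the 6 parental comparisons and not in the 3 between populations. DESeq2 1.42.0 and limma-voom (limma 3.58.1) were alternatives. The scripts were tested on simulated counts.

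The 30 genes and the comparisons were chosen with earlier results of these data known. As the genes numbered no more than 30, any of them could be named. Averages over larval temperatures differ from the contrast that chose the genes but are not free of it, since the spread at 30 °C was larger (median SD 0.87, against 0.59 at 20 °C, in log2(CPM + 1)). The labels do not say whether replicates were separate cultures, so p-values measure the spread between these samples, which may be technical. The planned gene lists, tissue markers, promoter motifs and protein comparisons need names or sequences, and were not run.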

Additional observations from a re-analysis of the deposited data

Results flagged for a closer look

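In 6 of 180 sets of 6 libraries (1 gene in 1 group each), 1 library stood apart from the rest by Dixon's gap ratio, which chance alone exceeds in about 1 of 20 such sets. For 3 genes this was replicate 3 of heat-selected larvae at 20 °C from unheated parents. CRE18316 held 173 CPM there, and 7.38 to 24.1 CPM in the other 5 libraries. CRE26773 held 16.9 CPM, and 0 to 1.26 CPM in the others. CRE21296 held 26.5 CPM, and 0 to 1 CPM in the others. In that library 27.9% of the reads did not align and the TMM factor was 0.77; their part in these values was not tested.

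In control-selected larvae at 20 °C from unheated parents, CRE09372 was at 0 CPM in replicate 5 and at 0.573 to 0.959 CPM in the others, and CRE00704 held 66.6 CPM in replicate 1 and 40.2 to 47.2 CPM in the others. In ancestral larvae at 20 °C from unheated parents, CRE08713 held 10.7 CPM in replicate 5 and 7.5 to 8.41 CPM in the others.

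The parental difference was compared between populations by edgeR's quasi-likelihood test of the difference itself. For heat-selected against ancestral larvae 13 of the 30 genes passed, beside 8.34% of all genes tested. For control-selected against ancestral larvae 2 passed, beside 1.13% of all genes tested. With replicates summed in pairs 2 and 0 of the 30 passed. The rule that chose the genes used these libraries, so nothing is read from the larger shares.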

How the results depend on the processing

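For single genes, direction was followed under the alternatives only for the called genes that rose or fell most in each comparison. None of these changed direction, and the other genes named were not followed in this way. The 30 genes became 79 with a threshold of 1 and 18 with a threshold of 2 for unheated parents, 14 with 0.5 asked of each population with heated parents, 54 with a pseudocount of 0.25 CPM and 15 from E, C and A as the sole batches (13 of them among the 30). Leaving out single libraries gave 27 to 36.

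With replicates summed in pairs, the genes that passed were 0 for the heat-selected and 0 for the ancestral parental effect, 2 for heat-selected minus ancestor and 0 for control-selected minus ancestor. For the levels they were 0 for heat-selected minus ancestor and 0 for heat-selected minus control-selected, and likewise 0 and 0 with counts summed per batch. Without the batch term, 2 genes passed for the control-selected parental effect and 5 for control-selected minus ancestor; with no filter on low counts, 1 passed for the control-selected parental effect. For the level of heat-selected minus ancestor 6 passed with total counts (the median of all genes moved to −0.18), 3 by limma-voom and 6 without the 4 libraries with over 35% of reads outside genes. Control-selected minus ancestor gave 1 with total counts.

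Leaving out single libraries gave 5 to 15 for the heat-selected, 0 for the control-selected and 3 to 4 for the ancestral parental effect; 5 to 15, 2 and 0 for its differences between heat-selected and ancestor, control-selected and ancestor, and heat-selected and control-selected; and 3 to 12, 0 to 2 (2 without replicate 4 of control-selected larvae at 30 °C from unheated parents) and 7 to 20 for the levels of heat-selected minus ancestor, control-selected minus ancestor and heat-selected minus control-selected.

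Groups share replicate numbers, and of 18 same-numbered pairs of libraries 14 correlated above 0.1 and 10 correlated best with their own number, a hint of pairing from the data. The labels name nothing shared and the lowest correlation was −0.07, so the main tests left the numbers unpaired, although most correlations hint at pairs. Counts with the numbers as a block are therefore given here, for the parental effects and for the level of control-selected minus ancestor alone. A replicate block gave 18, 0 and 3 genes for the parental effects of the heat-selected, control-selected and ancestral populations, and 7 lower genes for the level of control-selected minus ancestor. Shallow libraries limit genes such as CRE26773, where 1 CPM is a few counts.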

Other observations

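Of the 30 genes, 26 carry a CRE number and 4 do not, and of the 13460 genes tested 11862 carry one and 1598 do not. The ancestral libraries at 30 °C from unheated parents with replicate numbers 5 and 6 are labelled batch A, whereas those numbers are labelled B, D or F in every other group of unheated parents. Their 30 genes summed to 35700 and 30100 CPM, close to the 31900 and 30100 CPM of replicates 1 and 2 of the same batch, while replicates 3 and 4 of batch B held 68200 and 58500 CPM. Technical measures were less alike. TMM factors were 0.88 and 0.78 in replicates 5 and 6, against 1.29 and 1.28 in replicates 1 and 2. Reads not aligned were 21.1 and 21.9%, against 12.4 and 11.3%. The label was used as given.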
